A study of Mus musculus with 3 samples.

Results

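The mitosis genes considered here are 44 genes that drive chromosome segregation and cell division, chosen by name and not by a limit on their level. All 44 were found among the 43468 gene names read from the table and all 44 were detected, with 10 or more normalized counts in each of the libraries. RNA-seq was used to read transcript levels in primary fibroblasts grown from the tail tip of adult C57BL/6 mice, wounded in the in vitro scratch assay and given the soluble micrograft (MG) at a 1:10 dilution together with the MEK inhibitor PD0325901 at 1 μM for 5 h. MG is the cell-free extract of a mouse skin biopsy, and MEK is the kinase that activates ERK. The 3 libraries are labelled as replicates 1, 2 and 3 of this single MG + PD0325901 condition. The exact age and the sex of the mice and whether cells of several mice were pooled are not given in the sources used here. Untreated and MG-only libraries were not analysed here, so each comparison below is between replicates or between genes, and none measures the effect of the inhibitor.

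Mitosis genes are transcribed mainly late in the cell cycle and are repressed in resting cells, so in a culture their transcripts come mainly from cycling cells. Entry into mitosis depends on CDK1 bound to a cyclin, segregation waits on the spindle checkpoint, and the anaphase-promoting complex (APC/C) then destroys cyclin B and securin so that sister chromatids part. Fibroblasts at a wound edge are known to migrate and to divide, and ERK signalling is a well-known route by which growth factors bring resting cells into the cycle. In bulk RNA, fewer dividing cells and less of these transcripts per cell cannot be told apart, which holds for every level below.

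The reads on genes numbered 22540518 in replicate 1, 27037783 in replicate 2 and 17244505 in replicate 3, so the libraries ranked 2, 1, 3 in depth. The values are normalized counts, that is reads divided by a size factor per library, and 3 reads, the limit that a count of 0 allows, equalled between 2.11 and 3.56 normalized counts. Intervals from read counts cover counting error only. The least-read value of any mitosis gene rested on 44 reads, a counting error of 15.1%. All 9 fibroblast markers were detected. No keratinocyte, leukocyte or endothelial marker reached 10 normalized counts in every library, and the summed level of the 5 keratinocyte markers lay between 3.52 and 13, with 2 of them at 0 throughout. The 5 leukocyte markers summed to 19.1, 14.1 and 68.7 normalized counts in replicates 1, 2 and 3, the 3 endothelial markers to 13.9, 4.93 and 3.56. Of the 4 skeletal muscle markers Acta1 was detected, at 2429, 7286 and 5586 normalized counts, while Myod1 was at 0 in all 3. Acta1 was therefore highest in replicate 2, as most mitosis genes were, and its part in the results was not tested. Of the 9 fibroblast markers, replicate 2 was more than 2-fold above both other libraries for 1, Thy1. It was more than 2-fold below both for 2, Dcn and Lum. The shares of all genes with a mean of at least 10 were 5.20% above and 4.87% below. Thy1 had 2031, 15760 and 1652 normalized counts in replicates 1, 2 and 3. Lum, with 5073, 289 and 1164, was also more than 2-fold above both others in replicate 1. Of all genes with such a mean, 4.26% stood apart in replicate 1 in either direction. Replicate 2 was not apart for the other 6. The median log2 ratio of the 9 in replicate 2, as defined below, was -0.03, with single values from -3.07 for Lum to 3.10 for Thy1.

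Most of the mitosis genes share promoter letters that the choice of genes did not use. Late cell cycle promoters are known to carry the cell cycle genes homology region (CHR), the site read by the MuvB complexes and with them by B-MYB and FOXM1, and CCAAT boxes, the site of NF-Y. Promoter windows from 250 bases before to 50 after the RefSeq start (GRCm38.p6) were matched for 36 of the 44 genes, 3 of them with 2 windows, and a gene was counted where any of its windows held the letters. The windows of Incenp, Aurkb, Foxm1, Kif20a, Smc4, Cdc25c, Ccna2 and Tpx2 were not analysed here. The letters searched on both strands were TTTGAA or TTCGAA for the CHR, CCAAT for the CCAAT box, and TTTGGCGC or TTTCCCGC for an E2F-type site. The CHR letters were present in the windows of 29 of the 36 genes (80.6%), against 21.7% of the 27025 genes with a window. The CCAAT letters were present in 28 (77.8%), against 41.1% of all. Both stood in 26 (72.2%), against 9.65% of all. The E2F-type letters were present in 2 (5.56%), against 1.80% of all. With 150 bases before the start in place of 250, the CHR share was again 80.6%, against 13.7% of all. Where a CHR was present, the match nearest to the start lay within 50 bases of it in 25 of 29 genes, and 25 genes had a CCAAT match upstream of a CHR match. These positions were not counted in other promoters, and taking the nearest match favours short distances. A match is a run of letters and not a measured binding site.

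The windows of 10 genes are printed from 120 bases before to 30 after the RefSeq start (GRCm38.p6), 5′ to 3′ on the strand of the gene, with the CHR and CCAAT letters of either strand in capitals. The first 2 belong to the kinase that starts mitosis and to a cyclin partner, and are shown because the CHR and CCAAT boxes stand side by side in them.
Cdk1, chr10:69352883-69353032, minus strand: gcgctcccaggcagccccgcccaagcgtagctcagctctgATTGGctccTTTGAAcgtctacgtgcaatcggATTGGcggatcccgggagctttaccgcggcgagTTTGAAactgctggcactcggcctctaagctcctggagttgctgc
Ccnb2, chr9:70421525-70421674, minus strand: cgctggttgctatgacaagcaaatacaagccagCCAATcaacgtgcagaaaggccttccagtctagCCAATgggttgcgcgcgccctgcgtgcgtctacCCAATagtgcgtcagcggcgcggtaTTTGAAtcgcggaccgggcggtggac
Bub1, Kif11, Prc1 and Top2a are shown because in them replicate 2 stood more than 2-fold above both other libraries, as described below.
Bub1, chr2:127831830-127831979, minus strand: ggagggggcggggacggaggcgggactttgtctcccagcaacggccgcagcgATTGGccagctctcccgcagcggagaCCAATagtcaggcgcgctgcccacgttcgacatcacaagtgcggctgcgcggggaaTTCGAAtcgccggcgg
Kif11, chr19:37376262-37376411, plus strand: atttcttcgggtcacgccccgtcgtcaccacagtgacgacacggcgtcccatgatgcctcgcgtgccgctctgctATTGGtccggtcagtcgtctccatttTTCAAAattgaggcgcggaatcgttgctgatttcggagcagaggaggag
Prc1, chr7:80294331-80294480, plus strand: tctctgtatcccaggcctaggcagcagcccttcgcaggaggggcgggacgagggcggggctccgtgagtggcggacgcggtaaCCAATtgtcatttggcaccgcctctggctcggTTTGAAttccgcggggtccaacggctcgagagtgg
Top2a, chr11:99024160-99024309, minus strand: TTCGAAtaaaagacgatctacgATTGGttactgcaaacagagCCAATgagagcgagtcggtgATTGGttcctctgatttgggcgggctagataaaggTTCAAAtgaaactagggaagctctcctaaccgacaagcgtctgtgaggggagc
Bub3, Cdca8, Ube2c and Pttg1 are shown because they and Cdk1 are the 5 genes whose highest value was not in replicate 2.
Bub3, chr7:131560250-131560399, plus strand: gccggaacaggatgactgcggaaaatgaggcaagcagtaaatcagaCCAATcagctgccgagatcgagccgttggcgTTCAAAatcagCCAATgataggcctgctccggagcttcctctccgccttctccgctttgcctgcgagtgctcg
Cdca8, chr4:124936888-124937037, minus strand: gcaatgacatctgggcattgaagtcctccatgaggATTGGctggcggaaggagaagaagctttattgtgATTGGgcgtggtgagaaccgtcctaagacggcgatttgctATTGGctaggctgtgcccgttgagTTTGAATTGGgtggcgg
Ube2c, chr2:164769809-164769958, plus strand: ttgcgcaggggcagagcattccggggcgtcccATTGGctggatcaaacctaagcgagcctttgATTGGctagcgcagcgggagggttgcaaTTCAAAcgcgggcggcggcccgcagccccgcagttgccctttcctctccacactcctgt
Pttg1, chr11:43425952-43426101, minus strand: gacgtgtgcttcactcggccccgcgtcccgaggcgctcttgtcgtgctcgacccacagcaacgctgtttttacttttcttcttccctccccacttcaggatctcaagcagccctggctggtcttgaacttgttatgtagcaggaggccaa

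Pttg1 had neither motif in its window, while Bub3, Cdca8 and Ube2c had both. These letters were thus found both in genes that were highest in replicate 2 and in genes that were not. The Pttg1 window lies wholly inside the gene as annotated in GENCODE M21, which reaches 43426251. Letters upstream of that annotated end were therefore not searched for Pttg1. The windows of Cdca8, Kif2c and Kif4 also lie inside their annotated genes. In Cdca8 the CHR letters and a CCAAT match overlap. The remaining genes without a CHR match were Nuf2, Nusap1, Cenpe, Mad2l1, Birc5 and Ccnb1, of which Cenpe and Ccnb1 had CCAAT matches.

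**Figure D1:**
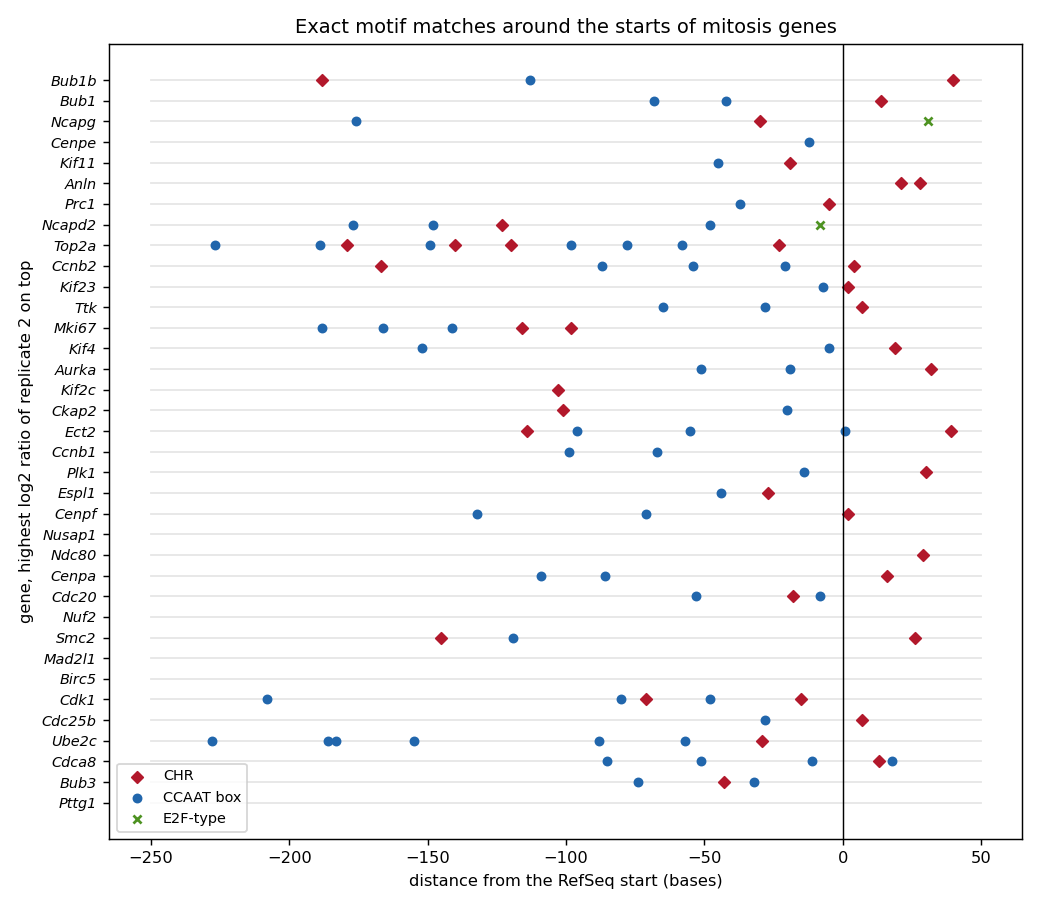
Positions of the CHR, CCAAT box and E2F-type letters (symbols) along the window from 250 bases before to 50 after the RefSeq start, in bases, for 36 mitosis genes, 1 window each, ordered by the log2 ratio of replicate 2 against the other replicates with the highest on top. The CHR match nearest to the start lies within 50 bases of it in 25 of 29 genes.

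The libraries of the 3 replicates carried the mitosis genes at different levels, and most of the genes differed in the same direction. The median level was 417, 651 and 280 normalized counts in replicates 1, 2 and 3, and the sum over all 44 genes was 22674, 36869 and 18160. In reads per 1000000 reads on genes, the sum was 1158, 1935 and 888. Replicate 2 held the highest value for 39 of 44 genes, against 40.3% of the 13152 genes with a mean of at least 10. Replicate 3 held the lowest value for 33, against 28.6% of these genes. The full order of replicate 2 over 1 over 3 was seen in 30 mitosis genes and in 18.3% of all genes. This order is also the order of depth, and whether depth had a part in it was not tested. Thinning to the depth of the shallowest library keeps the expected level of each gene, so it shows only added counting error. After it, 13 genes in place of 14 stood more than 2-fold above both other libraries in replicate 2. The median log2 ratio of replicate 2 against the mean of the others was 1.02, both before and after thinning.

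On that scale, log2(normalized count + 1) in a library minus the mean of the other libraries, the median over the mitosis genes was -0.27 in replicate 1, 1.02 in replicate 2 and -0.73 in replicate 3, against -0.02, 0.02 and 0.01 over all 13152 genes. The ratio of replicate 2 was above 0 for 42 of the 44 genes and that of replicate 3 for 2. The median SD of log2 values between replicates was 0.65 for the mitosis genes and 0.32 for all genes, and the highest and lowest library were more than 2-fold apart for 33 mitosis genes, against 27.0% of all genes. Once the median of the 44 genes was subtracted in each library the median SD was 0.28, so the larger part of the spread was a shift that the genes shared. Without replicate 2 the median SD was 0.22 and the median log2 ratio of replicate 1, then set against replicate 3 alone, was 0.30.

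**Figure D2:**
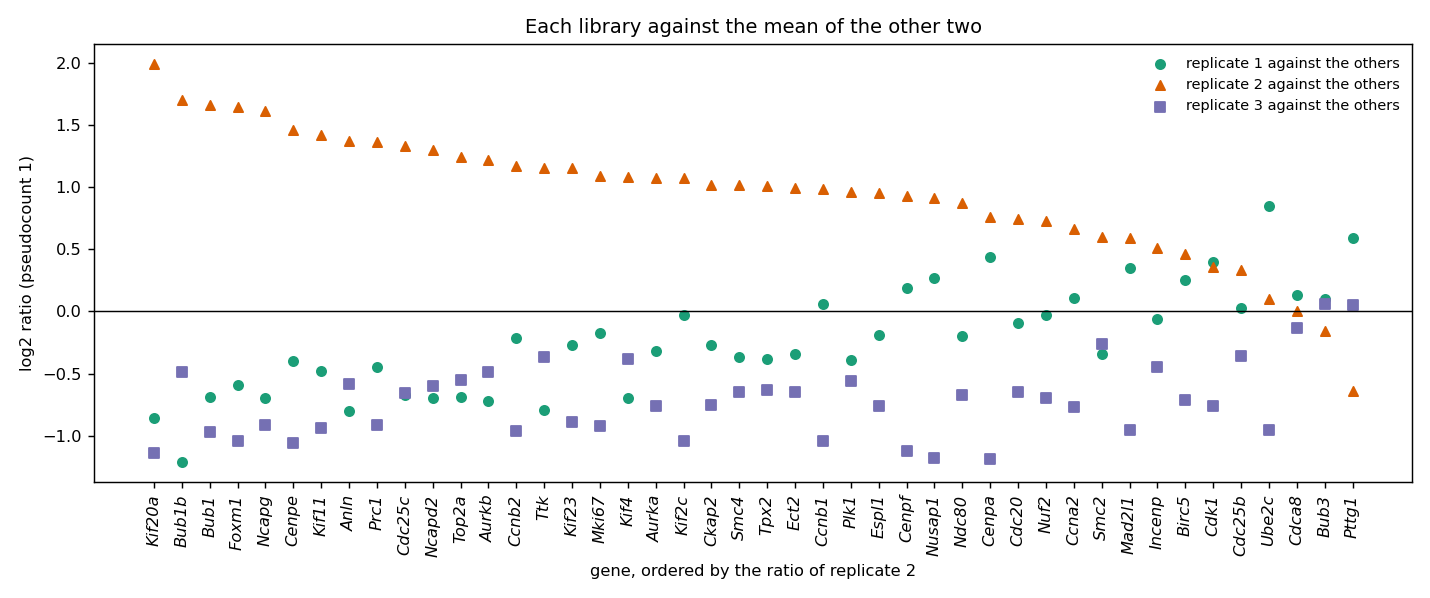
Log2 ratio (pseudocount 1) of each replicate against the mean of the others for the 44 mitosis genes, ordered by the ratio of replicate 2. Replicate 2 (triangles) runs from 1.99 for Kif20a to -0.64 for Pttg1 with 42 genes above 0, and replicate 3 (squares) is above 0 for 2 genes.

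Each pair of libraries was compared gene by gene with a two-sided exact binomial test on the reads recovered from the normalized counts, with Benjamini-Hochberg adjustment over every gene holding 10 or more reads across the pair and a threshold of 0.05. This test sets libraries against each other and not conditions, and it knows counting error alone. Between replicates 2 and 1, 36 mitosis genes were higher in replicate 2, against 35.7% of 14768 genes, and 3 were lower, against 32.7%. Between replicates 2 and 3, 41 were higher in replicate 2, against 32.0% of 14342 genes, and 2 were lower, against 30.0%. Between replicates 1 and 3, 26 were higher in replicate 1, against 25.1% of 14314 genes, and 1 was lower, against 26.1%. With a fold limit instead of a test, replicate 2 was more than 2-fold above both other libraries for 14 mitosis genes, against 5.20% of all genes, and more than 2-fold below both for 0, against 4.87%. Replicate 3 was below both others by that limit for Cenpa, against 2.30% of all genes, and above both for none, against 1.28%. Replicate 1 was apart in neither direction for any mitosis gene, against 4.26% of all genes.

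Among the cyclin-CDK genes and their activators, Cdk1 (chromosome 10, 69335146 to 69352938, minus strand, GRCm38), the catalytic kinase, had the highest mean and Cdc25c the lowest. Both are means of normalized counts not divided by length. Cdk1 had 1498, 1468 and 876 normalized counts in replicates 1, 2 and 3, averaging 1281 ± 351 (SD, n = 3). Replicates 1 and 2 lay together and replicate 3 stood below them. Cdc25c, one of the phosphatases that remove the inhibitory phosphates from CDK1, had 52.1, 132 and 52.2 normalized counts, so that replicate 2 was 2.54-fold above both. Cdc25b, a phosphatase with the same activity, varied less, with 254, 292 and 212 (SD of log2 values 0.23). Foxm1, the transcription factor that acts on many late cell cycle promoters, had 300, 844 and 244 normalized counts, a value in replicate 2 that was 2.81-fold above replicate 1 and 3.46-fold above replicate 3. The cyclins shared one order, highest in replicate 2 and lowest in replicate 3. Ccna2, the cyclin of S phase and early mitosis, had 668, 861 and 443 normalized counts. Ccnb1, the main mitotic cyclin, had 339, 519 and 204. Its relative Ccnb2 had 272, 514 and 192, and the ratio of Ccnb2 to Ccnb1 per kb of exon was 2.21, 2.72 and 2.59, so that the B cyclins kept their proportion within a 1.23-fold range. The median log2 ratio of replicate 2 over these 7 genes was 0.98.

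The kinases Plk1 and Aurka, which mature the centrosomes and help to start mitosis, were close to each other in mean level per kb of exon, 234 and 215 normalized counts, and in pattern. Aurka had 439, 835 and 358 normalized counts and Plk1 had 406, 760 and 376. In both, replicate 2 was about level with the sum of the others and the remaining libraries lay near each other, with replicate 2 over replicate 1 at 1.90-fold for Aurka and 1.87-fold for Plk1. Tpx2, which binds and activates Aurora A at the spindle, had 968, 1847 and 863 normalized counts, and its ratio to Aurka per kb of exon was 1.19, 1.20 and 1.30 in the 3 libraries, the steadiest of the 16 gene pairs examined.

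The spindle checkpoint, which holds anaphase until every chromosome is attached, held members that differed widely between libraries and one that hardly did. Bub3, a scaffold of the checkpoint, had 2294, 2034 and 2245 normalized counts, averaging 2191 ± 138 (SD, n = 3), with a 1.13-fold range. Bub1 and Bub1b encode the related proteins BUB1 and BUBR1, which bind BUB3 and reach kinetochores through it. Bub1 had 135, 402 and 119 normalized counts and Bub1b had 144, 557 and 201. For both, replicate 2 stood above the other libraries, by 2.98-fold and 3.39-fold for Bub1 and by 3.87-fold and 2.77-fold for Bub1b over replicates 1 and 3. The ratio of Bub1b to Bub3 per kb of exon was 0.103, 0.449 and 0.147, a 4.36-fold range, and that of Bub1 to Bub3 was 0.0944, 0.318 and 0.0850. Ttk, the kinase MPS1 at the top of the checkpoint, had the lowest mean count of the group, not divided by length, with 72.9, 180 and 88.9 normalized counts, and replicate 2 was again more than 2-fold above both. Mad2l1, the MAD2 protein that inhibits CDC20, had 507, 567 and 277 normalized counts. Its replicates 1 and 2 were not called different (adjusted p = 0.063, exact binomial test) and replicate 3 was lowest, as for Cdk1.

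The 4 genes of the chromosomal passenger complex, which corrects attachments and later directs cytokinesis, did not share a single pattern. Aurkb, the kinase, had 150, 370 and 167 normalized counts, and replicate 2 was 2.46-fold above replicate 1 (adjusted p = 5.8e-27, exact binomial test) and 2.21-fold above replicate 3. Incenp, the scaffold, had 650, 844 and 543 normalized counts (SD of log2 values 0.32). Birc5, or survivin, had 725, 796 and 463. Cdca8, or borealin, had 516, 487 and 459, averaging 487 ± 28.5 (SD, n = 3), the smallest spread of all 44 genes. Cdca8 was the one mitosis gene called in no pair of libraries, with adjusted p = 0.38, 0.45 and 0.13 by the exact binomial test for replicates 2 against 1, 2 against 3 and 1 against 3. The ratio of Aurkb to Incenp per kb was 0.340, 0.644 and 0.452, a 1.89-fold range, while that of Birc5 to Incenp was 1.42, 1.20 and 1.09. These 4 proteins act in one complex, and their median log2 ratio of replicate 2 was 0.48.

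The 5 centromere and kinetochore genes were all highest in replicate 2 and all lowest in replicate 3, with a median log2 ratio of replicate 2 of 0.87. Cenpa, the histone variant that marks centromeres, had 530, 614 and 249 normalized counts. Replicate 3 was 2.13-fold below replicate 1 and 2.47-fold below replicate 2, the one case in which replicate 3 stood apart. Cenpe, the kinesin that carries chromosomes to the spindle equator, had 307, 726 and 226, and replicate 2 was 2.37-fold and 3.21-fold above replicates 1 and 3. Cenpf, a large kinetochore protein, had the lowest mean count of the group, not divided by length, with 270, 382 and 147. Ndc80 and Nuf2, partners in the complex that grips microtubules, were near each other in mean level per kb, 42.4 and 53.1 normalized counts. Ndc80 had 240, 393 and 193 normalized counts. Nuf2 had 320, 454 and 235. Their ratio per kb, Nuf2 to Ndc80, was 1.37, 1.18 and 1.24 and varied 1.16-fold, so the partners differed between libraries by nearly the same factor.

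All 6 spindle motor and microtubule genes were highest in replicate 2. Kif11, the motor that pushes the spindle poles apart, had 270, 649 and 218 normalized counts, and replicate 2 was 2.40-fold and 2.98-fold above replicates 1 and 3. Nusap1, a microtubule-bundling protein, had the lowest mean count, not divided by length, with 293, 395 and 149. Per kb its mean of 68.8 was above those of Kif4 at 65.4 and Kif11 at 50.8. The kinesins Kif4 and Kif2c, and Ckap2, a spindle protein, had log2 ratios of replicate 2 between 1.02 and 1.08. Kif4 was the exception in its lowest library, with 243 normalized counts in replicate 1 and 282 in replicate 3, a difference that was not called (adjusted p = 0.16, exact binomial test).

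The 5 cytokinesis genes had the largest shift of any role group, with a median log2 ratio of replicate 2 of 1.36. Kif20a, a motor of the central spindle, had 427, 1597 and 375 normalized counts, 3.74-fold and 4.26-fold higher in replicate 2 than in replicates 1 and 3, the largest spread of all 44 genes (SD of log2 values 1.16). Prc1, which bundles the microtubules of the central spindle, had 970, 2232 and 783. Anln, or anillin, the scaffold of the contractile ring, had 723, 1974 and 800. Kif23, the motor of the centralspindlin complex, had 338, 652 and 254, so the ratio of Kif20a to Kif23 per kb, 2.30, 4.46 and 2.69, was not constant. Ect2, the exchange factor that switches on RhoA at the cell equator, had the lowest mean count of the group, not divided by length, with 164, 304 and 142. Kif20a shares 29.3% of its exon bases with Cdc23 on the opposite strand, and whether the counting used strand is not given in the sources used here. Cdc23 had 668, 1142 and 692 normalized counts, and was thus also highest in replicate 2.

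The genes of the APC/C step and of sister separation included 2 of the genes whose order departed from the rest. Cdc20, which activates the APC/C, had 592, 867 and 456 normalized counts and shared the order of the main body of genes. Ube2c, the ubiquitin-conjugating enzyme of the APC/C, had 1225, 863 and 532, so replicate 1 was highest, 1.42-fold above replicate 2 (adjusted p = 1.3e-18, exact binomial test). Pttg1, or securin, which holds separase inactive until anaphase, had 650, 366 and 506, and was 1.77-fold higher in replicate 1 than in replicate 2. It was the one gene with both other libraries clearly above replicate 2, since Bub3, the other gene called lower there in both pairs, differed by at most 1.13-fold. Espl1, or separase itself, was highest in replicate 2, with 181, 307 and 139 normalized counts. The ratio of Espl1 to Pttg1 per kb was therefore 0.0636, 0.192 and 0.0626, near each other in replicates 1 and 3 and highest in replicate 2, a 3.06-fold range. Ube2c shares 22.8% of its exon bases with Tnnc2 on the opposite strand.

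The chromosome structure genes were all highest in replicate 2. Top2a, the topoisomerase that untangles sister chromatids, had 1090, 2661 and 1159 normalized counts. Mki67, the Ki-67 protein that coats mitotic chromosomes and is used as a marker of dividing cells, had 829, 1485 and 586. Replicate 2 stood above both others for Top2a by more than 2-fold and for Mki67 by 1.79-fold over the nearer library. Condensin compacts the chromosomes. Its non-SMC subunit Ncapd2 had 433, 1089 and 453 normalized counts. Ncapg, another non-SMC subunit, had 124, 362 and 113. For both, replicate 2 was more than 2-fold above the other libraries. The core subunit Smc4 had 662, 1260 and 580. Its partner Smc2 had 509, 786 and 529, and replicate 2 was 1.49-fold above the nearer library. Smc2 and Smc4 form the core of both condensins, and their ratio per kb, Smc4 to Smc2, was 1.37, 1.68 and 1.15. The ratio of Ncapg to Ncapd2, subunits of condensin I, was 0.254, 0.295 and 0.221.

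**Figure D3:**
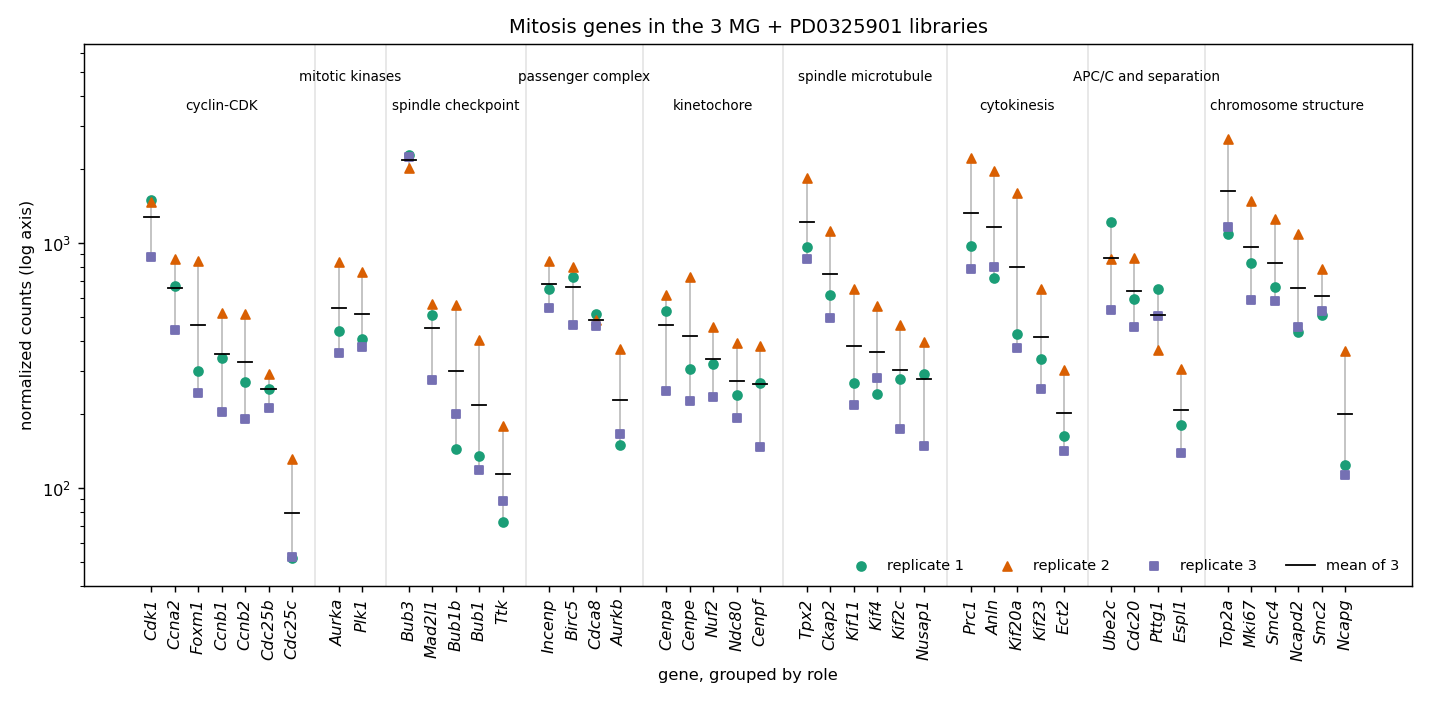
Normalized counts (log axis) of the 44 mitosis genes in replicates 1, 2 and 3 (points), with the mean of 3 as a black bar, grouped by role and ordered by mean within a group. Replicate 2 (triangles) is the highest point for 39 genes, and Bub3 and Cdca8 have the tightest points.

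**Figure D4:**
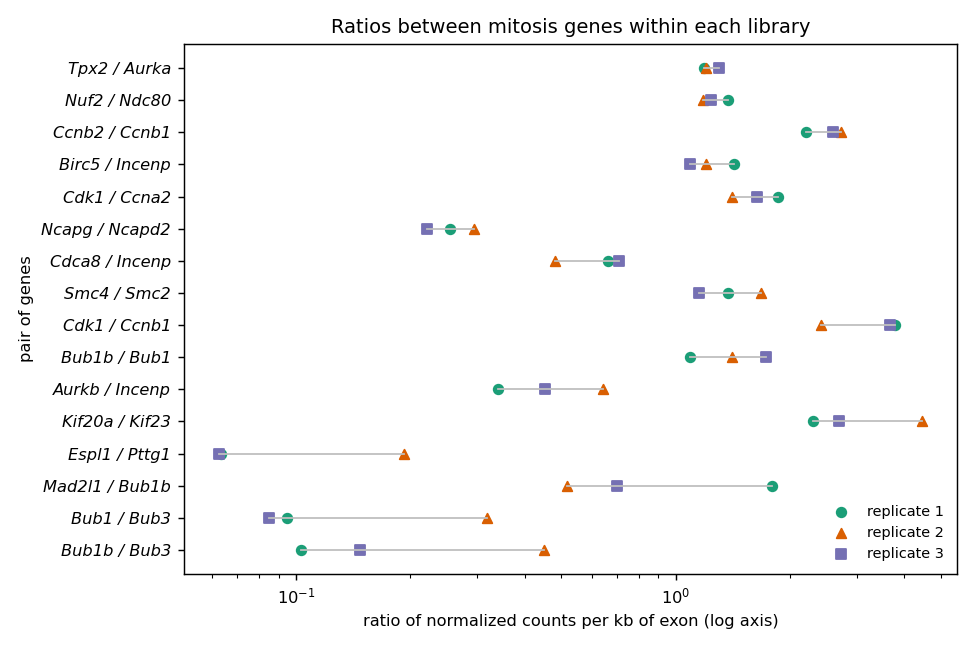
Ratios of normalized counts per kb of exon (log axis) for 16 pairs of mitosis genes in replicates 1, 2 and 3 (points), ordered by their range. Tpx2 to Aurka varies 1.09-fold and Bub1b to Bub3 varies 4.36-fold between libraries.

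Levels can be compared between genes only per length, here as normalized counts per kb of exon (GENCODE M21). The highest means were those of Cdc20, 342 ± 112 normalized counts per kb (SD, n = 3), Ube2c at 336 ± 133 and Bub3 at 313 ± 19.7, which do not differ beyond their spread. Each of the 3 led in a different library. Ube2c had 471 normalized counts per kb in replicate 1 against 317 for Cdc20, Cdc20 had 464 in replicate 2, and Bub3 had 320 in replicate 3 against 244 for Cdc20. Tpx2 at 262 and Cdk1 at 260 came next, then Pttg1 at 254, Plk1 at 234, Ckap2 at 232, Aurka at 215 and Ccnb2 at 213. The lowest levels per kb were those of Cdc25c at 16.0, Cenpf at 17.3, Ttk at 23.2 and Espl1 at 23.9, a 21.3-fold span from top to bottom. Neighbours in this order mostly did not keep their order across libraries, as 4 of 43 adjacent pairs did so in all 3, while 778 of all 946 pairs (82.2%) did. The median member lay at percentile 49.0 of the 12969 genes with a mean of at least 10 and a length, with all members between percentiles 17.8 and 79.0, and the median level per kb was 89.0 against 92.5 for all genes. With the length of the longest transcript in place of the exon union, 8 of the top 10 were the same genes, but Bub3 ranked 1, Cdc20 ranked 4, and Prc1 ranked 3 in place of 14, and 19 members changed in rank by more than the SD of their rank between libraries.

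Lists of related genes showed how far the shift of replicate 2 reached. In 58 other late cell cycle genes, among them kinetochore, spindle and cytokinesis genes outside the 44, the median log2 ratio of replicate 2 was 0.94 and that of replicate 3 was -0.73. Replicate 2 was highest for 48 of them, against 40.3% of all genes, and more than 2-fold above both others for 14, against 5.20%. By the exact binomial test 43 were higher in replicate 2 than in 1, against 35.7% of all genes, and 5 were lower, against 32.7%. Against replicate 3, 49 were higher, against 32.0% of all genes, and 0 were lower, against 30.0%. Kif20b, a cytokinesis motor related to Kif20a, had 110, 410 and 88.9 normalized counts, and Knl1, the kinetochore platform for Bub1, had 66.0, 230 and 60.4. Zwint, a kinetochore protein, was an abundant exception with 4725, 4066 and 4212.

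The 33 S phase genes had a smaller median log2 ratio in replicate 2, 0.33. Of these genes 22 were highest there (all genes 40.3%), 18 were higher and 4 lower than in replicate 1 (all genes 35.7% and 32.7%), and 17 were higher and 1 lower than in replicate 3 (all genes 32.0% and 30.0%). Rrm1, a subunit of the enzyme that makes deoxynucleotides, had 1672, 3371 and 1491 normalized counts, while Pcna, the sliding clamp, had 649, 774 and 691. The 9 cohesin genes, which hold sisters together and are used throughout interphase, had a median of 0.79, and all 9 were highest in replicate 2 and higher there than in both others by the exact binomial test. Their lowest library was replicate 1 for 5 and replicate 3 for 4, whereas replicate 3 was lowest for 33 of the 44 mitosis genes. By the same test 2 were higher in replicate 1 than in 3, against 25.1% of all genes, and 4 were lower, against 26.1%. The 15 APC/C core genes had a median of 0.27, with 7 higher and 5 lower in replicate 2 than in 1 and 9 higher and 6 lower than in 3. The shares of all genes were 35.7% higher and 32.7% lower than in replicate 1, and 32.0% and 30.0% for replicate 3. The count of 5 lower than in replicate 1 lay near its share, and the other counts lay above theirs, in both directions for replicate 3. The 23 regulators, from the E2F, RB, MuvB and NF-Y families with Trp53 and Cdkn1a, had a median of 0.03, with 7 higher and 7 lower than in replicate 1, and 10 higher and 6 lower than in 3. The shares of all genes were 35.7% and 32.7% for replicate 1 and 32.0% and 30.0% for replicate 3. The counts for replicate 1 and that of lower genes for replicate 3 lay near these shares. The count of 10 higher than in replicate 3 lay above its share. Mybl2, or B-MYB, had 134, 190 and 177 normalized counts, E2f1 had 731, 713 and 680, and Cdkn1a, or p21, the inhibitor of cyclin-CDK, had 21154, 16145 and 20673. No difference between lists was tested.

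**Figure D5:**
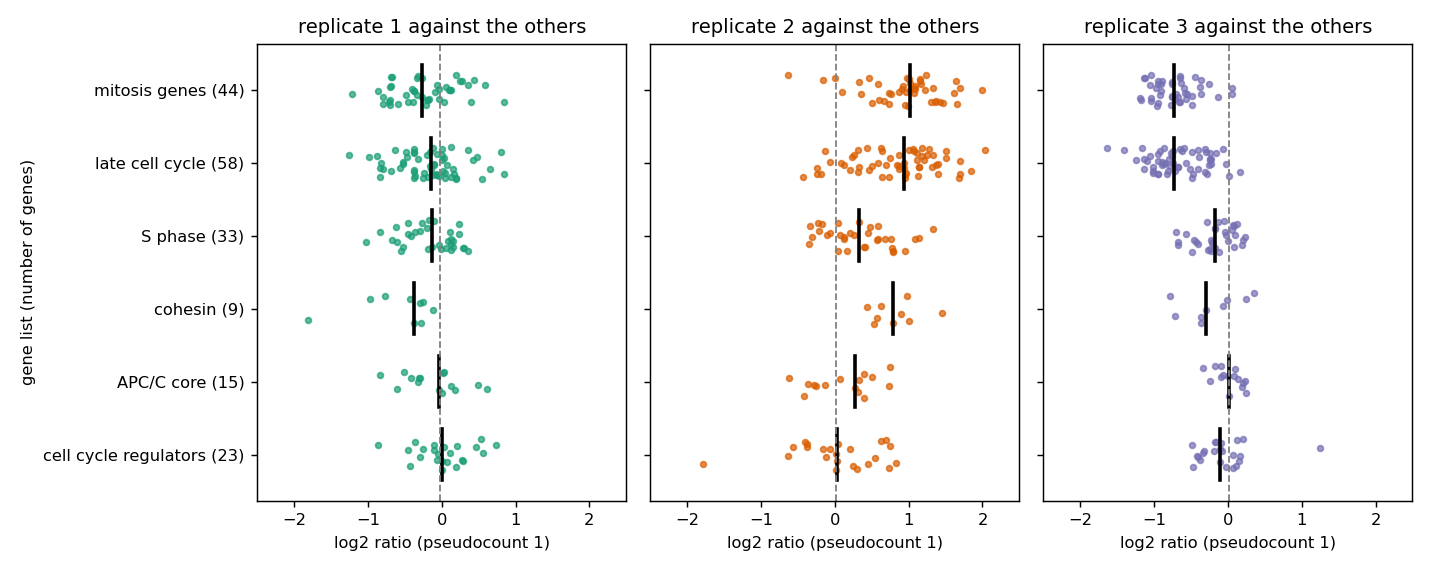
Log2 ratio (pseudocount 1) of replicates 1, 2 and 3 against the others for the genes of 6 lists (points) with the list median (black bar), beside the median of all 13152 genes (dashed line). In replicate 2 the mitosis genes (median 1.02) and other late cell cycle genes (0.94) lie furthest right and the cell cycle regulators (0.03) at the median of all genes.

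The log2 ratio of replicate 2 was also read by promoter letters, with no test. Mitosis genes with a CHR match had a median log2 ratio of replicate 2 of 1.07 (29 genes) and those without of 0.73 (7 genes). Among other genes with a mean of at least 10, the median was 0.04 for 1523 genes with the letters and 0.03 for 8083 without, and 0.07 for 746 genes with both CHR and CCAAT letters. Exon length moved with the ratio of replicate 2 over all genes, with a Spearman correlation of 0.33 over 12969 genes, and 0.25 over the 44 mitosis genes, where genes share the same libraries. Split at 5.06 kb, the median over the mitosis genes was 1.00 for the 22 shorter and 1.05 for the 22 longer, against -0.13 and 0.21 over all genes. After a correction of log2 values for length and GC content the median of the mitosis genes was 0.94.

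Some of the counts may be split with other genes. Exons of Ccna2, Cdc25b, Cdc25c, Plk1, Cdca8, Kif4, Nusap1, Prc1, Cdc20 and Ncapg overlap another gene on the opposite strand in GENCODE M21, in addition to Kif20a and Ube2c, and those of Foxm1, Top2a and Ncapd2 overlap one on the same strand. The annotation used for the deposited counts is not given in the sources used here. Pseudogenes named after Ccnb1, Ccnb2 and Kif4 are annotated, and reads shared with them may have been left out, so the levels of these 3 genes are uncertain.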

How the data were processed

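RNA-seq libraries of 3 replicates of 1 condition (wounded primary mouse fibroblasts, MG + PD0325901, 5 h) were analysed. Per the labels, libraries were made with a stranded mRNA kit, checked with FastQC 0.11.5, aligned to mm10 with TopHat2 2.0.13, handled with SAMtools 0.1.19.24 and counted with HTSeq 0.5.3p3, and DESeq is named. The annotation and the strand setting are not given in the sources used here. The deposited values are a signal in normalized counts, made by the authors from the counts of a library by division by its size factor. A further 3 columns of per-sample values could not be assigned to a sample and were not used. Divided by the value of 1 read, 100% of the values came out whole (within 0.01 reads), and these recovered reads imply size factors of 1.15, 1.42 and 0.844.

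A pseudocount of 1 was added before log2 values were taken, and means with SDs are of normalized counts. Genes with a mean of at least 10 entered fold limits and medians. Recovered reads of each pair of libraries entered a two-sided exact binomial test. edgeR 4.0.16 (R 4.3.3) gave TMM factors only. Python 3.11.15, numpy 2.4.6, scipy 1.17.1, pandas 2.3.3 and matplotlib 3.10.9 did the rest. Exon lengths, GC content and overlaps came from GENCODE M21 (GRCm38), promoters from RefSeq. Older symbols were matched through the reference tables. The pair test, the fold rule and the log2 ratio were tested on simulated data with known changes. Simulated reads varied by counting error alone, so this test does not cover the variation between replicates seen in the real libraries.

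No replicated comparison exists in 1 condition, so conditions were not tested against each other. The members and the lists were chosen with earlier results of these data known. By the rule for naming genes, values per replicate were given for the highest and lowest mean of each role group, genes apart by 2-fold in a replicate, and the 5 smallest and 5 largest SDs of log2 values. Further members were added after their values were seen, as were the examples from other lists. Alternatives were other pseudocounts, minimums, fold limits, scalings, windows and lengths, and each replicate left out. Equal depth for the fold counts and the exact tests, and a correction for length and GC content, were added after the data were seen.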

Additional observations from a re-analysis of the deposited data

How the results depend on the processing

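For the counts, shares, medians and SDs over the mitosis genes, 79 alternatives left the result near its main value, 11 moved a count or an SD and 1 reversed a sign. Near meant within 1.5-fold for a count. For a median log2 ratio it meant the same sign and a change below 0.61, the SD of the member medians between libraries. For the median SD it meant a change below the SD of the single SDs over the mitosis genes. For single genes, 220 alternatives kept the mean level within the SD between replicates. Those that left out a replicate could not do otherwise with 3 libraries, so they do not test the levels. The rest were TMM and equal totals, both brought to the same mean library total as the main values. The longest transcript in place of the exon union moved the rank per kb of 19 genes, among them Prc1 from 14 to 3. Without replicate 2, the median SD of log2 values of the mitosis genes was 0.22, and the range over each replicate left out was 0.22 to 0.82. Leaving out each other replicate in turn, the median log2 ratio ranged from -0.87 to 0.30 for replicate 1, the reversed value being the one without replicate 2, from 0.87 to 1.16 for replicate 2 and from -1.16 to -0.30 for replicate 3. These values follow from the construction, since without replicate 2 only replicates 1 and 3 are set against each other. With more than 2-fold required beside the exact test, 15 genes were higher in replicate 2 than in 1 and 2 higher in replicate 1 than in 3, and 0 were lower in replicate 2 than in 1, lower in replicate 2 than in 3, or lower in replicate 1 than in 3. Library totals in place of size factors left 1 gene lower in replicate 2 than in 3, and thinning to equal depth left 0 lower in replicate 1 than in 3. A fold limit of 1.5 put replicate 2 above both others for 28 genes and replicate 3 below both for 10, and scaling to equal totals put replicate 3 below both for 2. The shares of all genes were not computed under these alternatives, so each count is read only against the main count of the mitosis genes. The median log2 ratio of replicate 2 was 1.01 with TMM, 1.09 with equal totals, where the median of all genes was 0.09, and 0.94 with the correction for length and GC content. The cause of these moves was not tested. No paired analysis was possible because the 3 libraries belong to 1 condition. Counting error limits Cdc25c and Ttk most, with 44 and 75 reads in their least-read libraries.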

Other observations

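Among the regulators that act upstream of mitosis genes, single genes differed between the libraries in both directions. E2f2, an activating E2F, stood at 28.7, 9.16 and 40.3 normalized counts, in the order of replicates 1, 2 and 3. Its value in replicate 2 was below the 10 normalized counts set for detection. E2f2 was the one of 23 regulators for which replicate 2 was more than 2-fold below both others, against 4.87% of all genes. Rb1, the retinoblastoma protein that restrains E2F, had 210, 366 and 200 normalized counts, and Tfdp1, the DP partner of E2F, had 991, 2064 and 1562. Of the MuvB subunits, Lin54, which reads the CHR, had 215, 342 and 206 normalized counts and Lin9 had 148, 180 and 117, while Lin37 had 376, 272 and 345 and Lin52 had 279, 152 and 185. Nfya, the subunit of NF-Y that contacts the CCAAT box, had 804, 1088 and 697 and its partner Nfyc had 516, 351 and 398.

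Cohesin subunits and loaders differed in size within their list. Pds5a had 226, 1024 and 616 normalized counts and was the one cohesin gene apart in a library, more than 2-fold below both others in replicate 1. Of all genes, 4.26% were apart in replicate 1 in either direction. Nipbl, the cohesin loader, had 393, 967 and 612, and Rad21, the subunit that separase cuts, had 1412, 2086 and 1400. Among the APC/C core genes, Anapc1, the largest subunit, had 1036, 2159 and 1604 normalized counts, while Fzr1, the CDH1 activator used after anaphase, had 1104, 880 and 1158. These genes were chosen from their lists after their values were seen.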
